A study of Mus musculus with 8 samples.

Results

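PBS-treated pancreatic cancer cells are the vehicle control of a study in which a tumour cell clone was exposed to extracellular vesicles of T cells, and their libraries hold the transcriptome of the clone with no vesicles added. Both libraries whose title names PBS were taken, which is 2 of the 8 libraries of the series. The cells are mouse pancreatic cancer cells of low immunogenicity, a clone taken from KPCY mice. Such mice carry engineered tumour-driving alleles, among them a Trp53 allele (Trp53LSL-R172H/+), which stay silent until a recombinase removes a stop cassette. Pdx1-Cre, a recombinase under the promoter of a pancreatic progenitor gene, removes it, and the reporter Rosa26YFP/YFP marks the recombined cells. The genotype field of the labels reads WT for these libraries, while the series text gives the engineered alleles. The cells were seeded in wells, given PBS after a night of incubation, and harvested and reseeded the next day, and this was done 8 times. The labels name RPMI for growth and DMEM for the treated wells. All values describe 1 clone, and whether the libraries stem from separate cultures is not stated, so the spread between them may be technical.

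Pancreatic ductal adenocarcinoma is driven by growth signals that run through the MEK and ERK kinases, together with loss of the brakes p53 and CDKN2A or of TGF-beta signalling. Its cells resemble those of the pancreatic duct, and tumours range from a classical state with gastric and mucin genes to a basal-like state with squamous keratins. T cells see a tumour cell through peptides that the proteasome cuts, the TAP transporter moves into the endoplasmic reticulum and class I molecules carry to the surface. Interferons raise most genes of that pathway, and class II molecules are otherwise mainly a feature of professional antigen-presenting cells.

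Levels are given as counts-per-million (CPM), the gene's count divided by the library's total gene count, for PBS library 1 and then PBS library 2. CPM grows with the length of a transcript, so levels of different genes are compared only as CPM per kilobase of exon, as the mean of the libraries unless both are given. The libraries held 52451398 and 34385326 counts, so that 1 CPM stood for 52.5 and 34.4 counts. A gene was called expressed at 1 CPM or more in both libraries, silent under 0.1 CPM in both, and low otherwise. Of 21759 protein-coding genes, 10969 were expressed (50.4%), 2002 were low (9.2%) and 8788 were silent (40.4%), 6841 of them with 0 counts. Of all 42687 genes counted, 27.1% were expressed, 10.8% low and 62.1% silent. A count of 0 allows a level of up to 0.0572 CPM in library 1 and 0.0872 CPM in library 2, or 0.0345 CPM over both. Such limits, and the 95% exact Poisson intervals given for low genes, cover counting error only. No test was made, because a single group holds no contrast.

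The 36 gene lists described below hold 866 distinct measured genes, of which 516 were expressed, 117 low and 233 silent. The share expressed was above the 50.4% of all protein-coding genes in the epithelial, ductal, driver and NF-kB lists, and below it in the lists of acinar, endocrine, immune, fibroblast and endothelial cells. The members of a list were picked with knowledge of the pathway and of earlier results, so these shares describe the lists and nothing else.

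**Figure D1:**
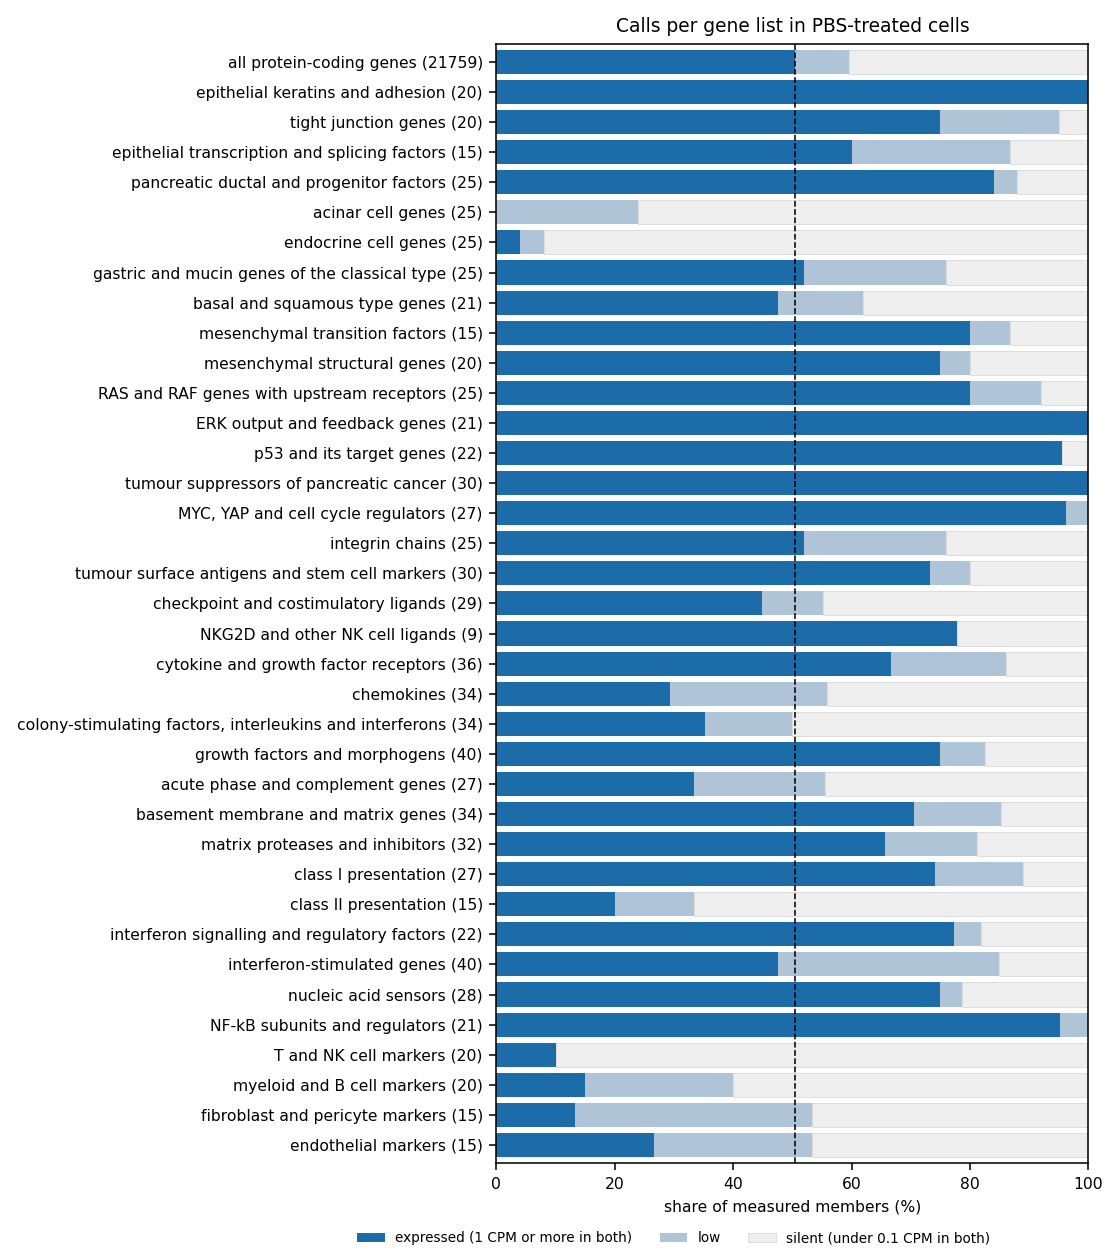
Share of the measured members of each gene list (horizontal axis, percent) that were expressed, low or silent in PBS-treated cells, with the number of measured members in parentheses and all protein-coding genes as the top bar; the dashed line marks the 50.4% of all protein-coding genes that were expressed. All 20 keratin and adhesion genes were expressed, against 0 of 25 acinar genes and 1 of 25 endocrine genes.

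The libraries gave similar levels for most genes. Over the expressed protein-coding genes the median absolute log2 ratio of the libraries was 0.16, and 93.1% of genes lay within 1.5-fold. Beyond 2-fold lay 154 genes (1.40%), and 9 lay beyond 4-fold. Among genes with a mean of at least 10 CPM the largest gap was that of Fos, an immediate-early transcription factor of growth factor signalling, at 13.8 and 185 CPM. Fosb, its close relative, was at 8.27 and 87.4 CPM. Dusp1, an immediate-early phosphatase of MAP kinases, was at 7.55 and 61 CPM, and Egr1, an immediate-early zinc finger factor, at 16.3 and 76.7 CPM. Jun, the partner of Fos in AP-1, was at 12.8 and 43.8 CPM, so all 5 of these genes were higher in library 2. The others of the 10 most different genes were Gkn2, Tcf23, Fgf2, Dbn1 and Dhrs3, of which Gkn2 and Tcf23 were higher in library 2 and the growth factor gene Fgf2, at 32.2 and 7.39 CPM, was higher in library 1 along with Dbn1 and Dhrs3. Among the listed genes that were expressed, 83.9% lay within 1.5-fold and 26 lay beyond 2-fold.

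**Figure D2:**
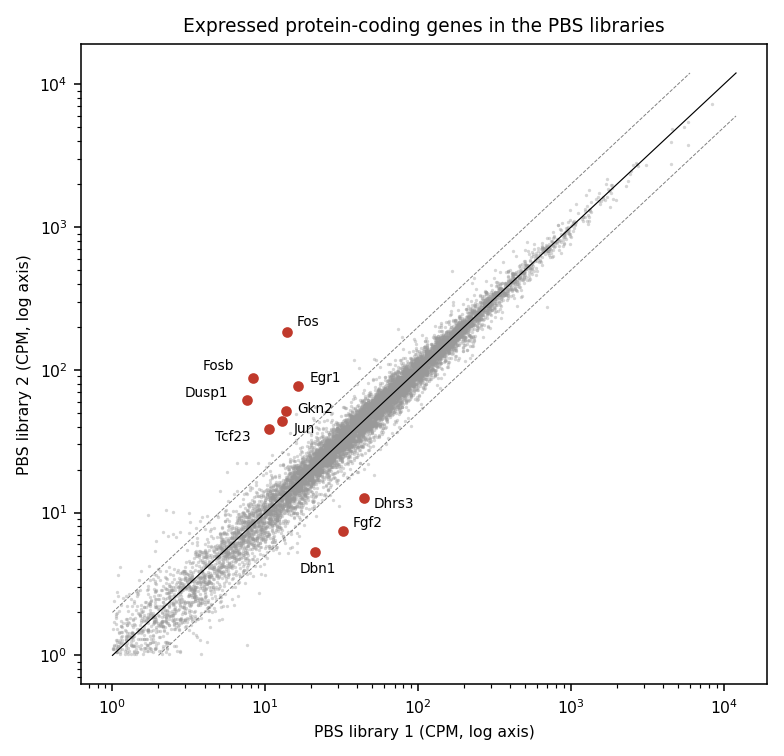
CPM of each expressed protein-coding gene in PBS library 1 (horizontal, log axis) and PBS library 2 (vertical, log axis), with the line of equality, dashed lines at a 2-fold difference and, in red, the 10 genes whose libraries differed most among those with a mean of at least 10 CPM. Most points lie close to the line, and Fos, Fosb, Dusp1 and Egr1 lie far above it.

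The 20 protein-coding genes with the highest CPM per kilobase were led by S100a6, a small calcium-binding protein, at 4103 CPM per kilobase. S100a11, of the same family, was at 2322, and the secreted phosphoprotein Spp1 (osteopontin) at 2216 CPM per kilobase. The keratin genes Krt18, Krt8 and Krt19 stood among the 20, with Lgals2 and Lgals1, which encode galactose-binding lectins, and Clu, which encodes the secreted chaperone clusterin. The X-linked homeobox gene Rhox5, known for its expression in the male reproductive tract of mice and in tumour cells, was at 841 and 812 CPM, or 1096 CPM per kilobase. The remaining members were Eef1a1, Eef2, Actb, Hsp90ab1, Ftl1 and the ribosomal protein genes Rplp1, Rplp0, Rps15, Rps2 and Rpl8, which every growing cell uses. The 20 genes with the most counts took 7.0% and 6.4% of all counts, so no small set of genes filled the libraries.

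The clone expressed the genes of an epithelium. All 20 keratin and adhesion genes were expressed, with a median of 203 CPM. Their median rank by CPM per kilobase was percentile 96.9 of protein-coding genes. Krt8, a simple epithelial keratin, was at 2479 and 2468 CPM (2474 ± 8.18, SD, n = 2), and its filament partner Krt18 was at 2364 and 2106 CPM. Krt19, the keratin of ductal epithelium, was at 2288 and 1943 CPM (2116 ± 244, SD, n = 2). Per kilobase, Krt18 stood above Krt8 by 1.3-fold in library 1 and 1.16-fold in library 2. Krt8 over Krt19 was 1.03 and 1.2, an order that turns when length is taken from the longest transcript (0.941), so their levels cannot be ranked. Krt7, another ductal keratin, was at 1959 and 1542 CPM, and Krt20, an intestinal type keratin, at 296 and 276 CPM.

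Cdh1, which encodes the adherens junction protein E-cadherin, was at 1302 and 1095 CPM (1198 ± 147, SD, n = 2). The catenins that tie it to actin were high as well, with Ctnnb1 at 1553 and 1446 CPM and Ctnna1 at 1066 and 1045 CPM. Epcam, the epithelial adhesion molecule used to sort carcinoma cells, was expressed at only 17.9 and 15.2 CPM (16.5 ± 1.91, SD, n = 2). Per kilobase, Cdh1 was 34.9-fold above Epcam in library 1 and 34.6-fold above it in library 2. Krt19, Krt8, Epcam and Cdh1, the 4 genes used to check the label of epithelial tumour cells, were thus all expressed, with Epcam the lowest of them per kilobase. Desmosome genes were present throughout, from Jup (plakoglobin) at 514 and 425 CPM to Pkp3 at 6.48 and 8.93 CPM.

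Tight junction genes were mostly expressed, 15 of 20, but the claudins, which set the seal's permeability, were uneven. Cldn6, a claudin of embryonic epithelium, was at 122 and 85.9 CPM, Cldn12 at 117 and 101 CPM and Cldn2, which forms a cation pore, at 72.6 and 36.6 CPM. Cldn1 was silent at 0.0763 and 0.0872 CPM, and Cldn4, Cldn7 and the stomach claudin Cldn18 were low, none of them above 1.95 CPM. The scaffold gene Tjp1 was at 457 and 397 CPM. The transcription and splicing factors that maintain epithelia showed the same unevenness, with 9 of 15 expressed. Of the epithelial splicing factors, Esrp2 was at 89.4 and 101 CPM while Esrp1 was low at 0.153 and 0.116 CPM. Among the grainyhead factors, Grhl3 was at 25.4 and 27.8 CPM, Grhl1 at 7.84 and 9.25 CPM and Grhl2 was low at 0.4 and 0.669 CPM. Elf3 reached 74 and 86.8 CPM and Klf5 79.5 and 67.8 CPM, while Ovol1 and Elf5 had 0 counts. Cdx2, the intestinal homeobox factor, was at 86.5 and 92.8 CPM.

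Pancreatic ductal and progenitor genes were expressed in 21 of 25 cases. Hnf4a, a nuclear receptor of gut, liver and pancreas progenitors, was at 411 and 367 CPM. Pdx1, the progenitor factor whose promoter drives the Cre of the model, was at 56.6 and 49 CPM, and Hnf4a stood 3.24-fold and 3.35-fold above it per kilobase. Gata4, Gata6 and Foxa2, endoderm factors, were at 79.7 and 82.6, at 57.8 and 61.6, and at 86.6 and 89.5 CPM. Sox9, the factor of ductal and progenitor cells, was expressed at a modest 5.61 and 4.33 CPM. Among ductal transport genes, the chloride channel Cftr was at 21.7 and 21.3 CPM, the bicarbonate cotransporter Slc4a4 at 90.4 and 66.9 CPM and the water channel Aqp5 at 41.2 and 103 CPM. Spp1, a duct-enriched gene in the pancreas, was at 4518 and 2787 CPM, higher in library 1. The exceptions were Prox1, Nkx6-1 and Mnx1 with 0 counts and Onecut1, which was low at 0.133 and 0.116 CPM while its relative Onecut2 was at 195 and 169 CPM. Of the exon bases of Onecut1 52.8% are shared with another annotated gene, so its value is uncertain.

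No member of the acinar list was expressed. Of 25 genes of this enzyme-secreting cell, 19 were silent and 6 low, 17 had 0 counts in both libraries, and the whole list summed to 2.38 and 1.69 CPM. The genes at 0 included Ptf1a and Rbpjl, subunits of the complex that drives acinar genes, the carboxypeptidases Cpa1 and Cpb1, and the lipase Pnlip. Bhlha15 (Mist1), a secretory cell factor, was low at 0.858 and 0.436 CPM. Amylase and trypsinogen genes have near-identical copies, so the low values of Amy1 (0.362 and 0.32 CPM) and Try5 (0.343 and 0.145 CPM) are uncertain.

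The endocrine list was likewise empty but for a single member. Of 25 genes 23 were silent, 16 of them with 0 counts in both libraries, and the sum was 2.42 and 2.21 CPM. The hormone genes Ins1, Ins2, Sst, Ppy, Pyy and Iapp and the factors Neurog3, Neurod1 and Nkx2-2 had 0 counts. Pcsk2, a prohormone convertase, was just past the threshold at 1.2 and 1.08 CPM, and the vesicle gene Syp was low at 0.82 and 0.902 CPM.

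Of 25 gastric and mucin genes of the classical tumour state 13 were expressed (52.0%), near the 50.4% of all protein-coding genes. Muc1, a transmembrane mucin, was at 527 and 647 CPM, and the gut lectin Lgals4 was at 608 and 709 CPM. Tspan8, a tetraspanin of digestive tumours, was at 623 and 631 CPM, and Cdh17, the intestinal cadherin, was at 561 and 646 CPM. Anxa10, an annexin of gastric epithelium, was at 141 and 199.9 CPM. Secreted gastric genes were lower and differed more between the libraries, with Tff1 (trefoil factor) at 18.9 and 36.6 CPM, Gkn2 (gastrokine) at 13.6 and 51.1 CPM and the gel-forming mucin Muc5ac at 2.14 and 7.33 CPM. All 3 were higher in library 2. Agr2, a secretory pathway isomerase of mucous cells, was just expressed at 1.05 and 1.89 CPM. Tff2, Muc2, Muc6, Muc16, Muc20 and Reg4 were silent.

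Of 21 basal and squamous genes 10 were expressed (47.6%), also near the 50.4% of all protein-coding genes, with a median of 0.273 CPM. Krt5, Krt6b and Krt17, keratins of basal and squamous epithelium, had 0 counts, and Trp63, the factor of basal cells, was low at 0.286 and 0.116 CPM. Krt14, which pairs with Krt5 in basal cells, was nevertheless expressed at 14.4 and 36 CPM, and Krt13 at 4.86 and 9.66 CPM. Sprr1a, a cornified envelope precursor, was at 87.2 and 77.9 CPM and Ivl (involucrin) at 28.4 and 18.8 CPM. Lamb3, a laminin beta chain of epithelial basement membranes, was at 135 and 127 CPM.

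Mesenchymal genes stood beside the epithelial ones. Of 15 mesenchymal transition factors 12 were expressed (80.0%, against 50.4% of all protein-coding genes). The median of these expressed factors was 3.49 CPM per kilobase, against 8.51 for all expressed protein-coding genes. They were led per kilobase by Hmga2, an oncofetal chromatin protein, at 319.9 and 338 CPM. Zeb1, a repressor of Cdh1, was at 54.9 and 50.4 CPM, and its relative Zeb2 at 6.5 and 6.25 CPM, so that Zeb1 stood 16.4-fold and 15.7-fold above Zeb2 per kilobase. Snai2 was at 6.5 and 6.17 CPM, Twist1 at 2.23 and 2.73 CPM, and Snai1 was low at 0.362 and 0.116 CPM. Vim, the intermediate filament vimentin of mesenchymal cells and of many cultured cells, was at 2705 and 2752 CPM. Per kilobase, Krt8 was 2.22-fold and 2.17-fold above Vim, or 1.35-fold by the longest transcript. Cdh2 (N-cadherin) was at 130.3 and 125 CPM, and Cdh1 stood 17.6-fold and 15.5-fold above it per kilobase, or 10.3-fold by the longest transcript. Fn1 (fibronectin) differed between the libraries, at 691 and 274 CPM, as did Ccn1, a secreted target of YAP, at 167 and 494 CPM. Mmp2, Lox, Cnn1 and Tagln were silent, although 67.9% of the exon bases of Tagln overlap a gene on the other strand.

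**Figure D3:**
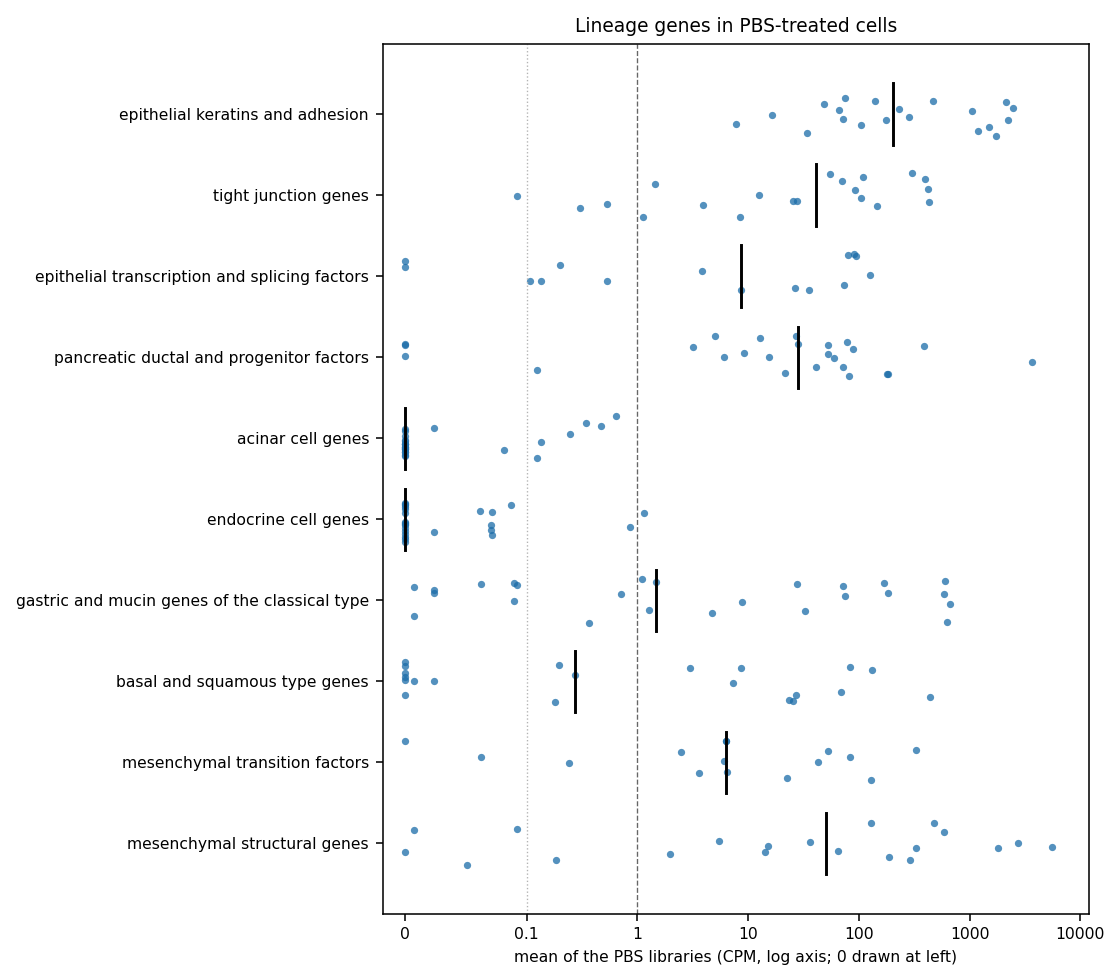
Mean CPM over the PBS libraries (horizontal, log axis, with 0 drawn at the left) of each member of the lineage lists, with 1 row per list and 1 point per gene and a black bar at the list's median, and with vertical lines at 0.1 and 1 CPM. Keratin and adhesion genes all sit above 1 CPM, acinar and endocrine genes crowd at or near 0, and gastric, basal and mesenchymal genes spread over the whole range.

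Few members of the lists for other cell types were expressed, from 10.0% to 26.7% of a list against 50.4% of all protein-coding genes. In the T and NK cell list 2 of 20 genes were expressed, and the list summed to 10.4 and 11.3 CPM. These were Trac, the constant region of the T cell receptor alpha chain, at 6.33 and 6.86 CPM, and the kinase Lck at 3.81 and 4.07 CPM, while Cd3d, Cd4, Cd8a, Cd2, Thy1, Prf1, Klrb1c and Ncr1 had 0 counts. In the myeloid and B cell list 3 of 20 were expressed, with sums of 204 and 167 CPM that came almost wholly from Mrc1, a mannose receptor, at 101 and 99.2 CPM and from Cd14, a coreceptor for bacterial lipopolysaccharide, at 97.8 and 64.2 CPM. Cd68 was at 3.11 and 1.8 CPM, the pan-leukocyte gene Ptprc (CD45) was low at 0.248 and 0.204 CPM, and Adgre1, Tyrobp, Spi1, C1qb, Cd79b and Ms4a1 had 0 counts. These counts cover the listed genes only. Outside both lists, Tigit, a receptor of T and NK cells, was at 40.3 and 30.5 CPM. Il5ra, a chain of the IL-5 receptor, was at 289 and 293 CPM. A bulk library cannot tell a low level in every cell from a higher level in a few.

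In the fibroblast list 2 of 15 genes were expressed, with sums of 10.6 and 9.39 CPM. They were Acta2 (smooth muscle actin) at 5.07 and 5.73 CPM and Col1a1 at 4.06 and 2.04 CPM, while Col1a2, the partner chain of Col1a1, and Dcn, Lum, Fap and Postn had 0 counts. In the endothelial list 4 of 15 were expressed, with sums of 36 and 48.7 CPM. The silent share was 46.7% in both the fibroblast and the endothelial list, near the 40.4% of all protein-coding genes. The endoderm and endothelial factor Sox17 was at 19.8 and 35.2 CPM, Egfl7 at 7.55 and 7.13 CPM, Esam at 5.57 and 4.01 CPM and Eng at 1.43 and 1.22 CPM. Erg had 0 counts, and Kdr, Tie1, Tek, Cldn5 and Emcn were silent.

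Genes of the RAS pathway were expressed from receptor to kinase, 20 of 25. Nras was at 257 and 226 CPM and Hras at 60.2 and 72.6 CPM. Gene counts do not separate the mutant from the wild-type allele of Trp53, described below. Among kinases downstream, Braf was at 29 and 27.3 CPM, Map2k1 (MEK1) at 98.7 and 99.5 CPM and Mapk3 (ERK1) at 227 and 171 CPM. Of the receptors, Met was at 167 and 172 CPM, Erbb2 at 112 and 91.3 CPM and Egfr at 36.3 and 29.6 CPM. Erbb4 had 0 counts and Fgfr1 was silent at 0.0572 and 0.0582 CPM, with Fgfr2, Fgfr3 and Ret low.

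All 21 genes of the ERK output and feedback list were expressed, with a median of 73.5 CPM. Ccnd1 (cyclin D1) was at 812 and 793 CPM, Emp1 at 1689 and 2015 CPM and Dusp6, a phosphatase that restrains ERK, at 308 and 327 CPM. The Sprouty inhibitors Spry1, Spry2 and Spry4 lay between 28.3 and 45.7 CPM. Fos, Jun and Egr1 were the members that differed between the libraries, each higher in library 2 as given above. Myc, the growth-promoting transcription factor, was at 235 and 238 CPM. Of 27 MYC, YAP and cell cycle regulators 26 were expressed, and the exception was Mycl, low at 0.153 and 0.436 CPM. Proliferation genes were high, with Top2a at 587 and 662 CPM, Mki67 at 262 and 300.3 CPM and Cdk4 at 433 and 467 CPM. Yap1 and Wwtr1 (TAZ), coactivators of the Hippo pathway, were at 205 and 188 CPM and at 231 and 162 CPM.

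Trp53 was at 305 and 307 CPM (306 ± 1.85, SD, n = 2). Its targets were nearly all expressed, 21 of 22 with Trp53 itself counted, and some stood far below it. Among all expressed genes, the p53 targets Rps27l and Perp were at 79.7 and 71.4 CPM per kilobase, beside 75.7 for Trp53. Ratios between genes do not measure the activity of p53, which was not tested. Cdkn1a (p21), the p53 target that halts the cycle, was at 9.7 and 18.4 CPM, and Trp53 stood 27.6-fold and 14.6-fold above it per kilobase. Mdm2, the ligase that degrades p53, was at 51.6 and 61.2 CPM, with Trp53 7.42-fold and 6.32-fold above it. Gdf15, a secreted stress factor, was at 2.31 and 6.89 CPM, and Eda2r, a death receptor relative, had 0 counts. All 30 tumour suppressors on the list were expressed, with a median of 66.9 CPM. Cdkn2a, which encodes p16 and p19Arf and is often lost in pancreatic cancer, was at 221 and 203 CPM (212 ± 13.1, SD, n = 2), and its neighbour Cdkn2b at 106 and 69.5 CPM. Smad3 and Tgfbr2 of the TGF-beta pathway were at 156 and 110.4 CPM and at 148 and 124 CPM. The lowest of the 30 by CPM per kilobase was Palb2, a partner of Brca2 in DNA repair, at 9.46 and 7.71 CPM.

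On the surface, 13 of 25 integrin chains were expressed (52.0%, against 50.4% of all protein-coding genes). Itgb1, the beta chain that most integrins share, was at 965 and 948 CPM, and Itga3 and Itga6, laminin-binding chains, were at 859.6 and 653 CPM and at 501 and 464 CPM. Itga3 stood 2.71-fold and 2.22-fold above Itga6 per kilobase, or 1.39-fold by the longest transcript. The leukocyte chains Itgal and Itgax had 0 counts and Itgb2, their partner, was low at 0.515 and 0.349 CPM. Itgam was also at 0, but 68.7% of its exon bases are shared with other genes, so that value cannot be read as silence. Of 30 tumour surface antigens and stem cell markers 22 were expressed. Bsg, a matrix metalloprotease inducer, was at 548 and 508 CPM, and Cd24a at 649 and 665 CPM. Msln (mesothelin), a target of antibodies in pancreatic cancer, was at 459 and 417 CPM, and Cd44, a hyaluronan receptor, at 322 and 295 CPM. Lgr5, Cxcr4 and Ceacam10 had 0 counts.

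Of 29 ligands that restrain or engage lymphocytes 13 were expressed (44.8%) and 13 silent (44.8%). These shares were near the 50.4% and 40.4% of all protein-coding genes. Cd274 (PD-L1), the ligand of PD-1, was at 18.2 and 16.9 CPM, while Pdcd1lg2 (PD-L2) was low at 0.0953 and 0.407 CPM. Cd47, a signal against phagocytosis, was at 157 and 147 CPM, which per kilobase was 4.97-fold and 5.02-fold above Cd274. Lgals9 and Lgals3, galectins that bind receptors on T cells, were at 285 and 261 CPM and at 496 and 688 CPM. The adhesion ligands Pvr, Nectin2 and Nectin3, which receptors of T and NK cells bind, lay between 27.5 and 65.8 CPM. Among costimulatory ligands, Cd80 and Cd86, the ligands of CD28, were silent and Cd40 and Cd70 had 0 counts, while those expressed were Tnfsf9 (the ligand of 4-1BB) at 16.6 and 18.7 CPM, Tnfsf4 at 3.47 and 3.4 CPM and Icosl at 2.1 and 1.74 CPM. The death ligands Fasl and Tnfsf10 were silent as well, and Fas, the receptor of Fasl, was low at 0.305 and 0.523 CPM. Icam1, an adhesion ligand of T cells, was at 12 and 8.81 CPM.

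Stress ligands for NK cells were mostly expressed, 7 of the 9 measured. Raet1a, Raet1b and H60a of the same list had no matching symbol, so their levels are not known. Raet1e, a ligand of the activating receptor NKG2D, was at 30.3 and 24.7 CPM and Ulbp1 at 13.8 and 10.9 CPM, while H60c had 0 counts. These families have near-identical copies, so the split between members is uncertain. Among cytokine and growth factor receptors 24 of 36 were expressed. Both chains of the interferon gamma receptor were present, Ifngr1 at 159 and 137 CPM and Ifngr2 at 191 and 173 CPM, and so were those for type I interferon, Ifnar1 at 98.9 and 81.3 CPM and Ifnar2 at 28 and 22.2 CPM. Ltbr, the lymphotoxin receptor, was at 166 and 176 CPM and Il22ra1, a receptor chain for IL-22, at 104 and 102 CPM. Il1r2, Il17rb, Il20ra and Tgfbr3 had 0 counts.

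Chemokine genes were mostly low or silent. Of 34 genes 10 were expressed (29.4%), 9 low (26.5%) and 15 silent (44.1%), with a median of 0.185 CPM. The shares of all protein-coding genes were 50.4%, 9.2% and 40.4%, so the silent share was close to that of all genes. Cxcl16, a transmembrane chemokine, was at 129.8 and 165 CPM, and Cxcl5, which draws neutrophils, at 73.6 and 99.5 CPM. Per kilobase they stood close, at a ratio of 1.09 and 1.02. Cx3cl1 (fractalkine) was at 69.1 and 50.7 CPM and Ccl20, which draws CCR6-bearing cells, at 14 and 25.9 CPM. Cxcl1 differed between the libraries, at 5.61 and 19.1 CPM, as did Ccl2, which draws monocytes, at 1.12 and 4.19 CPM. The chemokines that draw T cells through CXCR3 were low or silent, with Cxcl9 at 0.439 and 0.204 CPM (95% interval of the pooled level 0.233 to 0.493 CPM), Cxcl10 at 0.991 and 0.785 CPM and Cxcl11 at 0.0381 and 0.0291 CPM. Ccl5, which also draws T cells, was silent at 0.0381 and 0.0872 CPM, and Ccl3, Ccl4, Ccl22 and Xcl1, which act on T cells or dendritic cells, had 0 counts.

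Among colony-stimulating factors, interleukins and interferons 12 of 34 were expressed (35.3%) and 17 silent. Of all protein-coding genes 50.4% were expressed and 40.4% silent. The list's expressed share was thus lower, and its silent share somewhat higher. Il1rn, the antagonist of the IL-1 receptor, was at 648 and 715 CPM, and only Mif stood above it per kilobase. The agonist Il1a was at 5.81 and 4.36 CPM, so the antagonist stood 39.7-fold and 58.4-fold above it per kilobase (103-fold by the longest transcript), and Il1b had 0 counts. Mif, a macrophage migration inhibitor, was at 267 and 256 CPM, and Il33, a nuclear alarmin, at 121 and 124 CPM. Csf1, the growth factor of macrophages, was at 52.9 and 52.5 CPM, while Csf2 (GM-CSF) was low at 0.496 and 1.89 CPM and Csf3 (G-CSF) low at 0.782 and 0.582 CPM. Il6, Il10, Il12b, Ifng, Ifnb1, Ifna4 and both lambda interferon genes had 0 counts. Il15, which sustains NK and memory T cells, was expressed at 3.93 and 4.13 CPM, and Il18 at 6.41 and 3.9 CPM.

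**Figure D4:**
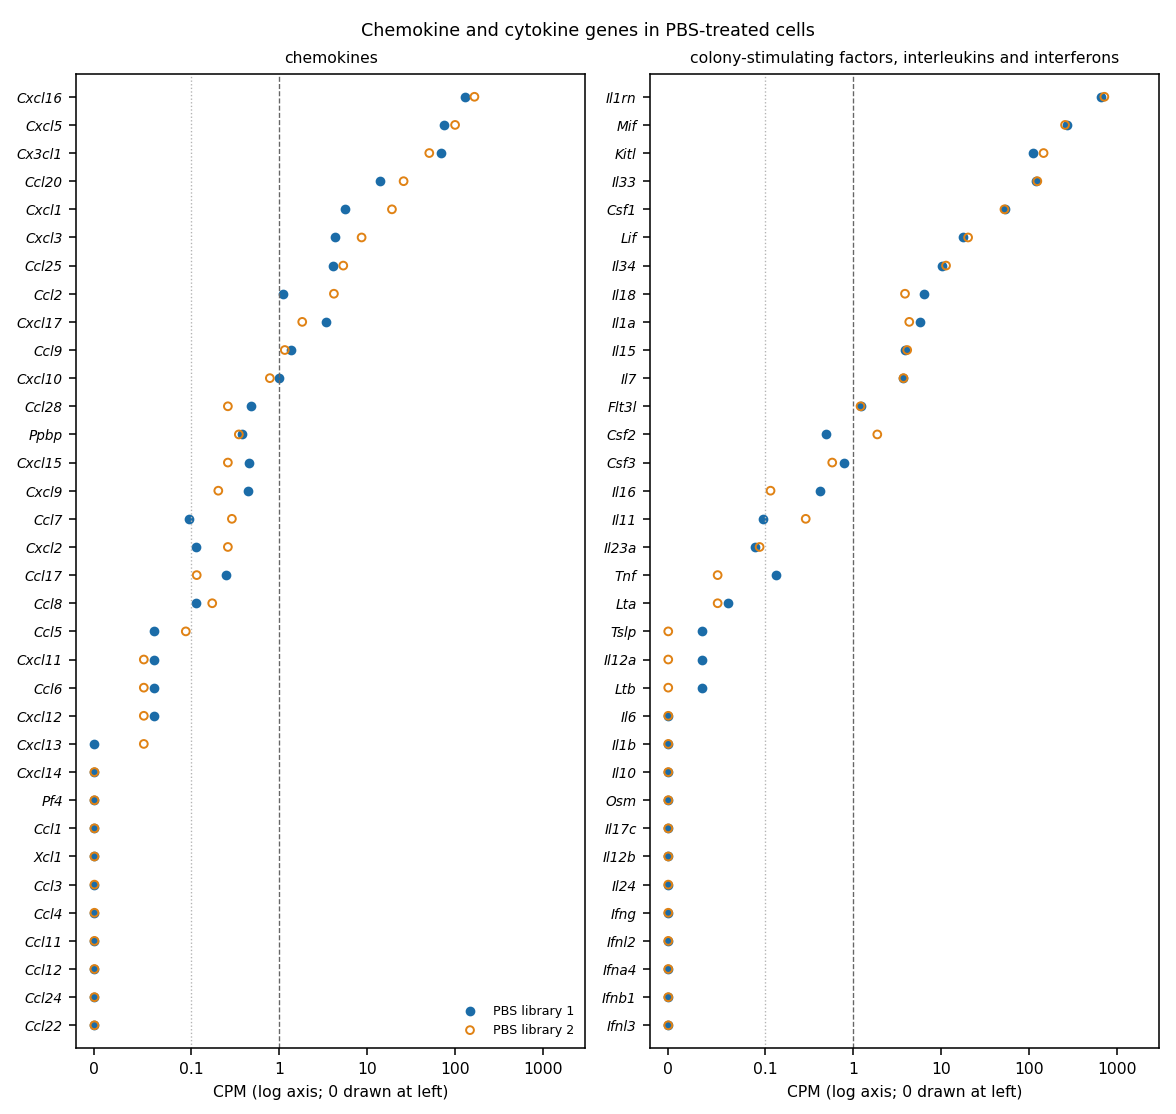
CPM (horizontal, log axis, with 0 drawn at the left) in PBS library 1 (filled) and PBS library 2 (open) of each chemokine and of each colony-stimulating factor, interleukin and interferon. Cxcl16, Cxcl5 and Cx3cl1 have the highest CPM of the chemokines and Il1rn has the highest CPM of the other cytokines, while many members sit at or near 0.

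Growth factor genes were more often expressed, 30 of 40. All ligands of the EGF receptor family on the list but Epgn passed the threshold, with Hbegf at 99.7 and 119 CPM, Tgfa at 64.5 and 64 CPM and Areg at 26.9 and 43.3 CPM. Egf itself was only just expressed at 1.07 and 1.13 CPM. Tgfb1 was at 57.2 and 55.7 CPM, and Vegfa, which drives vessel growth, at 87.5 and 85 CPM. Of the hedgehog ligands, Ihh was expressed at 6.25 and 13.5 CPM and Shh was silent at 0.0572 and 0 CPM. Wnt7a differed between the libraries, at 21.1 and 55.3 CPM. Hgf, the ligand of Met, was silent at 0.0191 and 0 CPM. Igf2 had 0 counts, but 64.5% of its exon bases are shared with other genes, so this value cannot be read as silence.

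Acute phase and complement genes were expressed in 9 of 27 cases (33.3%), with 12 silent (44.4%), against 50.4% and 40.4% of all protein-coding genes. Clu, an inhibitor of complement and a chaperone, was at 5851 and 3736 CPM, higher in library 1. Saa1, Saa2, Saa3, Pigr, S100a9 and Orm1 had 0 counts and Lcn2, a siderophore-binding protein that inflammation raises, was silent at 0.0572 and 0 CPM. Cd55, which breaks down complement convertases on the cell surface, was at 47.6 and 66.8 CPM. C3, the centre of the complement cascade, was at 3.32 and 1.89 CPM.

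Of 34 matrix genes 24 were expressed, led per kilobase by the basement membrane collagen Col4a1 at 909.7 and 919 CPM, with its partner chain Col4a2 at 453 and 490.3 CPM. Lama5, the laminin alpha chain of mature epithelia, was at 491 and 406 CPM, and the heparan sulfate proteoglycan Hspg2 (perlecan) at 352 and 336 CPM. Of the fibrillar collagens on the list, Col1a1 was expressed at 4.06 and 2.04 CPM and Col5a1 at 4 and 2.91 CPM, Col3a1 was low at 0.248 and 0.145 CPM and Col5a2 at 0.153 and 0.0582 CPM, and Col1a2 had 0 counts. Of 32 proteases and inhibitors 21 were expressed. Timp2, an inhibitor of metalloproteases, was at 898 and 855 CPM and Mmp14, a membrane-bound metalloprotease, at 214 and 174 CPM. Mmp7 had 0 counts, and Mmp2 and Mmp9, the gelatinases, were silent at 0.0191 and 0 CPM each. Mmp13, a collagenase, was the most expressed secreted metalloprotease per kilobase, at 48.4 and 60.1 CPM. Plat, a plasminogen activator, was at 434 and 365 CPM.

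Of 27 class I presentation genes 20 were expressed, among them the chains of the class I molecule itself, while Tap1, Psmb8, Psmb9 and Nlrc5 were low or silent. H2-K1 and H2-D1, the classical heavy chains of the mouse, were at 192 and 182 CPM (187 ± 6.83, SD, n = 2) and at 246 and 271 CPM (258 ± 17.7, SD, n = 2). B2m, their light chain, was at 195 and 206 CPM (201 ± 8.46, SD, n = 2). B2m stood 3.46-fold and 3.87-fold above H2-K1 per kilobase, or 2.34-fold by the longest transcript. The chaperones Calr, Canx and Pdia3, which serve many glycoproteins, lay between 744 and 1309 CPM. Tapbp (tapasin), which bridges class I and TAP, was at 111 and 118 CPM.

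Tap1, a chain of the peptide transporter, was low at 1.12 and 0.582 CPM (95% interval of the pooled level 0.72 to 1.13 CPM), and its partner Tap2 was at 4.59 and 3.43 CPM. Per kilobase H2-K1 stood 318-fold and 584-fold above Tap1. The immunoproteasome subunits differed among themselves. Psmb8 was silent at 0.0953 and 0.0872 CPM, from 5 and 3 counts, and Psmb9 was low at 0.362 and 0.116 CPM, from 19 and 4 counts. Psmb10 was expressed at 28.4 and 31.8 CPM. The constitutive subunits that they replace were all present. Psmb5, which Psmb8 replaces, was at 43.3 and 49.3 CPM, or 1708-fold and 2126-fold above Psmb8 per kilobase, ratios that rest on those few Psmb8 counts and come to 1076 by the longest transcript. Psmb6 stood 1304-fold and 4053-fold above Psmb9, or 3012-fold by the longest transcript, and Psmb7 3.75-fold and 3.42-fold above Psmb10. Nlrc5, the transactivator of class I genes, was low at 0.0953 and 0.262 CPM (95% interval 0.0881 to 0.271 CPM). The genes of the H2-Q and H2-T groups have near-identical copies, so their values are uncertain, and of the H2-Q genes only H2-Q4 was expressed, at 1.45 and 2.21 CPM.

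Promoter sequences are shown for class I genes that were expressed (H2-K1 and B2m), for a gene that was low (Tap1, which shares its promoter with Psmb9, also low) and for a class II gene with 0 counts (H2-Aa), because these genes of linked function stood at such different levels. Each runs 5′ to 3′ along the gene's strand over the 250 bases before its start in RefSeq (GRCm38.p6), a build other than the mm9 named in the submitters' processing notes. H2-K1 is at chr17:34000334-34000583 on the minus strand, the first of 2 windows listed for the gene, and B2m at chr2:122147437-122147686 on the plus strand. Tap1 is at chr17:34187306-34187555 on the plus strand, and the window of Psmb9, on the minus strand, shares 225 of these bases because the genes lie head to head. H2-Aa is at chr17:34287824-34288073 on the minus strand. Capitals mark CCAAT, a box bound by the factor NF-Y, read on either strand (CCAAT or ATTGG).
H2-K1: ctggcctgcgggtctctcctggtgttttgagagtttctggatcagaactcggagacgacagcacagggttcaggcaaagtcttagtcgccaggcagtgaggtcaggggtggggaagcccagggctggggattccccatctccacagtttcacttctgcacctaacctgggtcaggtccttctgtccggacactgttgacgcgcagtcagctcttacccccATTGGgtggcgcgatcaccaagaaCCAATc
B2m: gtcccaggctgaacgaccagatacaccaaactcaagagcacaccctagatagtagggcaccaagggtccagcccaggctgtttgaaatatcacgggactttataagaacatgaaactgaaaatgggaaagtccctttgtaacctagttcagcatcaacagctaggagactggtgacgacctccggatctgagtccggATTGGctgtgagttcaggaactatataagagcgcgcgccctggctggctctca
Tap1: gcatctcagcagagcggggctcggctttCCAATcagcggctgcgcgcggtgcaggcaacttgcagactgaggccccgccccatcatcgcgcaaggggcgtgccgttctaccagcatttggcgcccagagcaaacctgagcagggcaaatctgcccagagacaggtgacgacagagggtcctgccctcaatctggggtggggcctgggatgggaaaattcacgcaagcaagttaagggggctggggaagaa
H2-Aa: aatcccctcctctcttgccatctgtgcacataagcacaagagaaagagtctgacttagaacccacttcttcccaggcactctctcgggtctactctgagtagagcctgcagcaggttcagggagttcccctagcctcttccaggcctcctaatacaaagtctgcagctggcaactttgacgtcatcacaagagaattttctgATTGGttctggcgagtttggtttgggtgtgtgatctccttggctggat

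A CCAAT box was found in the windows of H2-K1, B2m, Tap1 and H2-Aa, and in 33.9% of all 32841 promoter windows of the table, cut to the same 250 bases. H2-K1 held 2, at 30 and 6 bases before the start, B2m held 1 at 53 bases and H2-Aa 1 at 48 bases. The box of the shared Tap1 and Psmb9 promoter lay 222 bases before the start of Tap1 and 8 bases before that of Psmb9. These matches describe the letters of each window, and CCAAT stood in windows of expressed, low and silent genes alike.

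Of 15 class II genes 10 were silent (66.7%, against 40.4% of all protein-coding genes). Of these, 6 had 0 counts, among them the chains H2-Aa, H2-Ab1 and H2-Eb1. Cd74, the invariant chain, was silent at 0.0191 and 0.0582 CPM and Ciita, the class II transactivator, at 0.0191 and 0.0291 CPM. The 3 expressed members were Rfx5, Rfxap and Rfxank, subunits of a complex that is made in most cells, at 13.8 to 19.7 CPM.

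**Figure D5:**
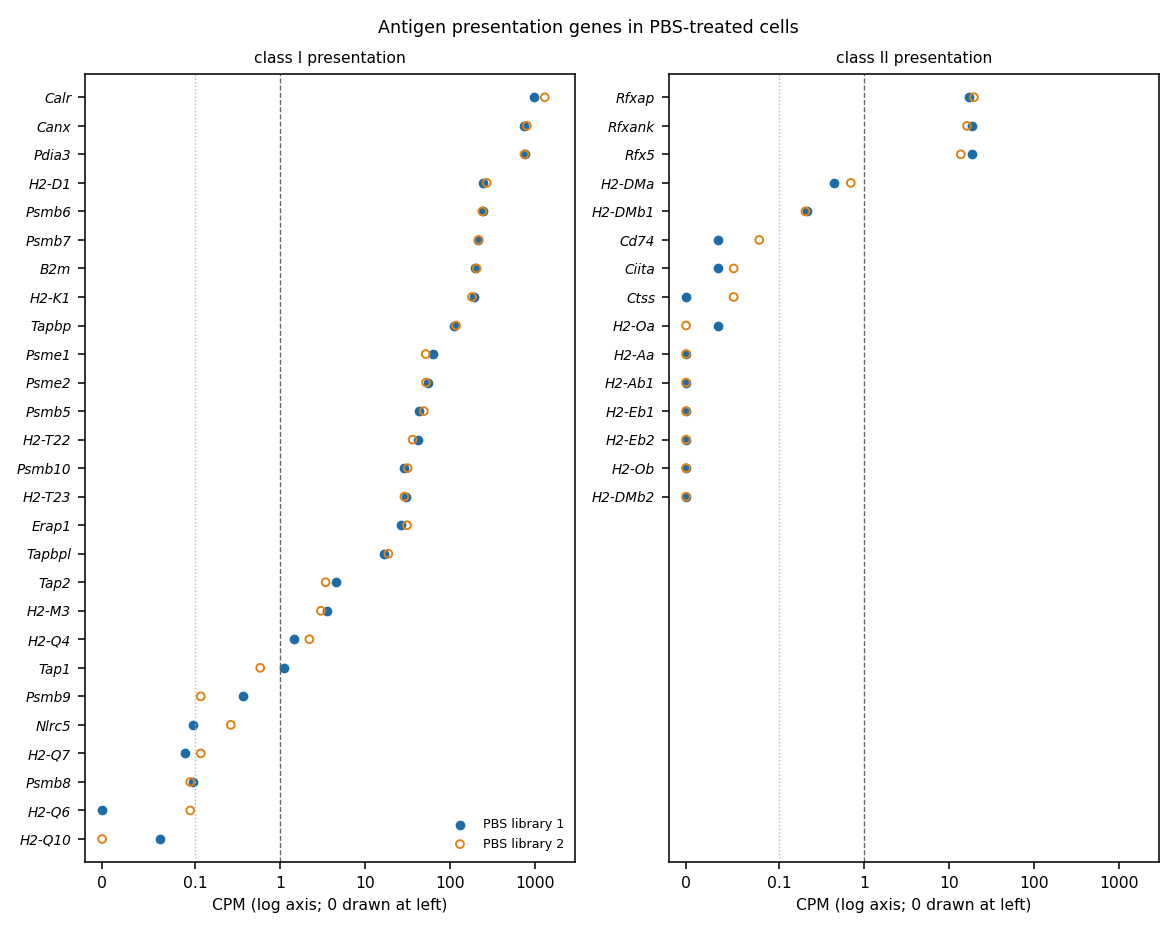
CPM (horizontal, log axis, with 0 drawn at the left) in PBS library 1 (filled) and PBS library 2 (open) of each gene of the class I and class II lists. H2-K1, H2-D1 and B2m sit between 182 and 271 CPM, Tap1 near 1 CPM, Psmb8 and Psmb9 below it, and the class II chains at 0.

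Of 22 interferon signalling and regulatory genes 17 were expressed. Jak1 and Jak2, the kinases of the interferon gamma receptor, were at 172 and 157 CPM and at 168 and 139 CPM. Irf1, an interferon-induced transcription factor, was at 40.2 and 29 CPM. Stat4, Irf4 and Irf8, genes of lymphoid and myeloid cells, had 0 counts.

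Of 40 interferon-stimulated genes 19 were expressed (47.5%), 15 low (37.5%) and 6 silent (15.0%). The shares of all protein-coding genes were 50.4%, 9.2% and 40.4%. The list's median was 0.789 CPM, and its median rank by CPM per kilobase was percentile 49.2 of protein-coding genes. Among the low members Isg15, a ubiquitin-like modifier, was at 0.82 and 0.785 CPM, Ifit1, a sensor of foreign RNA, at 0.458 and 0.262 CPM, and the antiviral GTPase gene Mx1 at 0.381 and 0.494 CPM. Rsad2 (viperin) was silent at 0 and 0.0291 CPM. Usp18, a brake on type I interferon signalling counted in the list above, was low at 0.686 and 0.698 CPM. Other members were well expressed, led per kilobase by Bst2 (tetherin), which holds virus at the membrane, at 43.7 and 52.2 CPM. Adar, an RNA editing enzyme, was at 92 and 77.4 CPM, Samhd1, a nucleotide hydrolase, at 86.4 and 80.7 CPM and Oasl1 at 41.7 and 51.5 CPM. Outside the list, the interferon-stimulated gene Ly6e was at 899 and 759 CPM, or 219 CPM per kilobase. Bst2 was at 53.1 CPM per kilobase, so it leads the listed genes only.

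Sensors of nucleic acids were mostly expressed, 21 of 28, a larger share than the 50.4% of all protein-coding genes. Their silent share was smaller than the 40.4% of all protein-coding genes. Cgas, the sensor of cytosolic DNA, was at 2.38 and 3.08 CPM, and its adaptor Tmem173 (STING) at 9.89 and 3.64 CPM. Tbk1, the kinase they engage, was at 43.1 and 56.9 CPM and Mavs, the adaptor of the RNA sensors, at 54.2 and 46.3 CPM. The RNA sensors Ddx58 (RIG-I) and Ifih1 (MDA5) were at 18.1 and 15.1 CPM and at 16.5 and 11.8 CPM. Of the toll-like receptors, Tlr4 and Tlr3 were at 37.6 and 35.7 CPM and at 27 and 25.8 CPM, and Tlr9, which senses DNA in endosomes, was silent at 0.0191 and 0.0291 CPM. Zbp1 and Nlrp3 were silent too. Trex1, a nuclease that clears cytosolic DNA, had 0 counts, but all of its exon bases are shared with another annotated gene, so this cannot be read as silence.

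All 21 NF-kB genes but Traf1 were expressed. Rela, its main activating subunit, was at 96.9 and 98.6 CPM and Nfkb1 at 130.1 and 133 CPM. Tnip1, an inhibitor of the pathway, was at 173 and 155 CPM, and Tnfaip3 (A20), another, at 41.4 and 50 CPM. Nfkbia, the inhibitor that the pathway induces, was at 21.2 and 30.9 CPM. Traf1 was low, at 0.553 and 1.43 CPM.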

How the data were processed

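RNA of PBS-treated cells was isolated on columns and converted to strand-marked libraries of polyadenylated RNA, per the labels' protocols. The authors deposited whole-number counts per gene, with 42687 genes listed by Ensembl identifier. The PBS columns were used, and 0 columns could not be mapped. Named in the submitters' processing notes, without a role for any of them, are the build mm9 and the programs bcl2fastq (version 2.19), TopHat2 (2.0.11), TopHat and Cufflinks (2.1.1). Which program counted, with which strand setting and which annotation, is not given in the sources used here, so values of overlapping genes and of genes with near-identical copies are uncertain.

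Symbols (42329 genes), gene classes and exon lengths came from GENCODE M21 and promoter sequences from RefSeq, both on GRCm38, so no coordinate was joined to the counts. Genes of the mitochondrial genome are not in the table. Counts were divided by each library's total and given as CPM, and as CPM per kilobase of a gene's merged exons (bedtools 2.31.1, pandas 2.3.3, Python 3.11.15). Poisson intervals came from scipy 1.17.1, scaling factors for the alternatives from edgeR 4.0.16 in R 4.3.3. The calculations were tested on simulated data. Genes were named mainly from the lists, first the members highest per kilobase and those at 0 counts. Added were the 20 highest protein-coding genes and the 10 whose libraries differed most among those with a mean of at least 10 CPM. A few expressed genes outside a list were named beside it. The members and lists were chosen with earlier results of these data known. Alternatives were other thresholds, scalings and lengths and each library alone. Of the listed symbols, 3 were not matched, and some genes of these pathways are not reported here.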

Additional observations from a re-analysis of the deposited data

How the results depend on the processing

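No paired analysis was possible because no result comes from a test and the PBS libraries form a single group. Counts of expressed members kept within 1.5 times their value under every alternative except in the endocrine list, where 1 expressed gene became 2 at 0.5 CPM and 0 at 2 CPM. Small counts of silent members moved with the silent threshold. Under 0.05 CPM there were 0 silent tight junction genes in place of 1, 1 mesenchymal transition factor in place of 2, 2 mesenchymal structural genes in place of 4, 1 RAS pathway gene in place of 2, 1 NK cell ligand in place of 2, 3 matrix genes in place of 5, 1 class I gene in place of 3 and 3 interferon-stimulated genes in place of 6. Under 0.2 CPM 4 epithelial transcription and splicing factors were silent in place of 2. With each PBS library left out, silent tight junction genes ran from 1 to 2 and silent class I genes from 3 to 5. The median level of the 516 expressed list members was 49.7 CPM, and 51.3 CPM under TMM scaling. With 1 library left out it ran from 47.7 to 49.7 CPM. Per length it was 10.9 CPM per kilobase, against 14.2 with the longest transcript as length, which is shorter than the merged exons of a gene. TMM scaling raised levels by a median ratio of 1.032, RLE size factors by 1.022 and the protein-coding total by 1.007. A level of 0.1 CPM rests on 5.25 and 3.44 counts, so the silent and low calls near it are not separated at this depth.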
